A study of Mus musculus with 36 samples.

Results

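The families miR-297, miR-466, miR-467 and miR-669 of the mouse were described in small RNA sequencing of liver and epididymal white adipose tissue (eWAT). Members were chosen by name: every mature miRNA of the deposited count table called miR-297, miR-466, miR-467 or miR-669 followed by a letter, which gave 80 of 1966 mature miRNAs. There were 6 of miR-297, 31 of miR-466, 13 of miR-467 and 30 of miR-669. Counts were found for 65 members, and 15 were at 0 in all libraries.

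The samples came from wild-type C57BL/6 male mice of an F1 generation, sampled at 24 weeks of age. LF, HF and HFLF are the names of the diet groups, each with 6 libraries of either tissue and 36 libraries in all. Chow was fed until 6 weeks of age, followed by 18 weeks on a defined diet. Tags of LFD, HFD or HFLFD distinguish the groups, while the treatment text names LFD for every sample, so the labels do not settle whose diet a group name stands for. Nothing in the labels says that replicates are separate mice, and p-values therefore measure the spread between these samples.

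Sfmbt2 is an imprinted gene that encodes a Polycomb-group protein and is expressed from the paternal allele in the early mouse embryo and trophoblast. One of its introns carries a large, rodent-specific array of miRNA hairpins from these families, built from repeated copies. Each hairpin can release a mature miRNA from its 5′ arm (5p) and from its 3′ arm (3p), and the seed of a mature miRNA, bases 2 to 8, is the stretch that guides pairing to target RNAs.

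On the GRCm38 build, Sfmbt2 lies on chromosome 2 from 10370510 to 10595253 on the plus strand. Of 82 precursors named in the table, 80 matched the gene annotation, 70 lay in Sfmbt2 and 10 elsewhere. The precursors mir-466a and mir-466c-3 were not matched. The 70 precursors spanned chromosome 2 from 10466663 to 10518279, within intron 10 of the transcript Sfmbt2-201. By member, 64 came from Sfmbt2 only, 3 from Sfmbt2 and another locus, 9 from other loci only, 2 from Sfmbt2 and an unmatched precursor, and the 2 arms of miR-466a from an unmatched precursor.

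The RefSeq table (GRCm38.p6) held mature sequences of 8 members, all from loci outside Sfmbt2. They are shown, read 5′ to 3′ with the seed in capitals, as the members whose letters the table gives and as examples of the repeats in such sequences; none is a member of miR-297.
miR-466i-3p: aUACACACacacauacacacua
miR-466j: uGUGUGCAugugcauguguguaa
miR-466k: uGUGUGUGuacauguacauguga
miR-466q: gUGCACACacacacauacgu
miR-467f: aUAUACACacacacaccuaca
miR-467g: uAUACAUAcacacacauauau
miR-467h: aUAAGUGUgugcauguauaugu
miR-669n: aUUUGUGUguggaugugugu
The 8 sequences had 8 different seeds. Each held an unbroken run of alternating A and C or of alternating U and G, from 7 bases in miR-466j and miR-467h to 12 bases in miR-466q and miR-467f. Of these 8, miR-466i-3p had the most counts, 214 over 36 libraries, from chromosome 13 (17747552 to 17747573, plus strand). The others had 34 counts or fewer, and miR-467f, miR-467g and miR-669n were at 0.

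Most copies within the intron lay at similar distances from each other. The 11 precursors of mir-467a and mir-467b lay between 105.8 and 132.8 kb from the start of Sfmbt2, with a median distance of 2.45 kb between neighbours and a range of 2.41 to 4.88 kb. The 12 precursors of mir-669a, between 103.9 and 139.6 kb, and the 11 of mir-466b, mir-466c and mir-466e, between 103.7 and 133.1 kb, also had a median distance of 2.45 kb, with largest distances of 6.37 and 4.91 kb. The table repeated the same count on many lines of copies that give the same mature miRNA, and such copies cannot be told apart by counts. Some lines differed: in eWAT, miR-466f-3p had 89, 1075 and 188 counts on mir-466f-1, mir-466f-2 and mir-466f-3. The 157 member lines were reduced to the line with the highest total for each mature name, which leaves out lower lines that differ.

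Some mature members also shared all their counts. Of the 65 members above 0, 16 belonged to 7 sets with the same counts in every library, such as miR-466b-3p, miR-466c-3p and miR-466p-3p, or miR-669a-5p and miR-669p-5p, which left 56 distinct members. miR-466e-3p differed from miR-466b-3p in 1 library, and miR-466a-3p in 21, by at most 44 counts. Sums over members therefore hold some reads more than once. These members are not independent measurements.

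**Figure D1:**
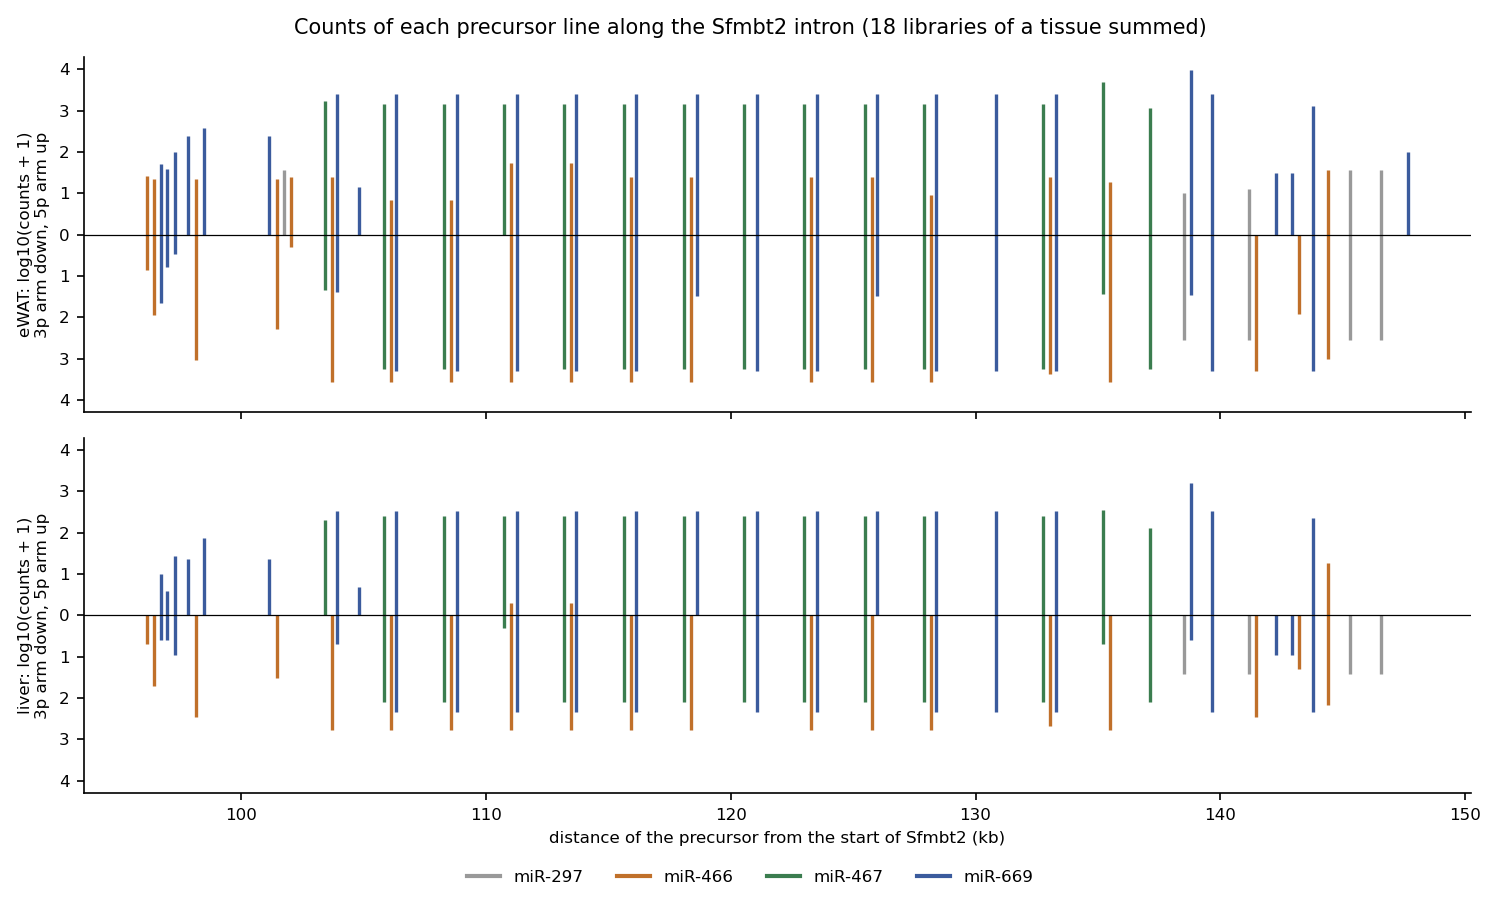
Counts of each precursor line against its distance in kb from the start of Sfmbt2, as log10(counts + 1), with 5p arms drawn up and 3p arms down; the 18 libraries of a tissue are summed, eWAT above and liver below, and members whose name gives no arm, such as miR-466g, are left out. Bars of equal height in the middle of the array are copies that share their reads, and the highest single bar in both tissues is the 5p arm of miR-669c at 138.79 kb.

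Counts were concentrated in a few members. miR-669c-5p had 11089 counts over 36 libraries, 20.3% of the 54681 counts of the distinct members. It was followed by miR-467e-5p with 5282, miR-466e-3p with 4237, miR-466b-3p with 4231 and miR-466a-3p with 3962 counts. Of the 80 members, 32 had 100 or more counts and 33 had between 1 and 99. miR-669c-5p and miR-466i-5p were counted in all 36 libraries, and no other member was counted in all 18 liver libraries.

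Most hairpins were read from one arm. Of 27 hairpin names with both arms in the table and 100 or more counts, the 5p arm held over 90% of counts in 10 and under 10% in 12, though several of these names share one arm's reads. For miR-669c, 99.7% of counts were 5p, 11089 against 30 of the 3p arm (95% Wilson interval 99.6 to 99.8%, for counting error only), and for miR-467e 99.4% (99.2 to 99.6%). miR-466b was read from the other side, its 5p arm holding 0.564% (0.379 to 0.838%), as were miR-466d, with 0 of 2314 counts 5p, and miR-466f, with 1.52% (0.995 to 2.31%). miR-466o and miR-466m of the intron had more 5p than 3p counts, 24 against 1 and 26 against 10. The 24 of miR-466o-5p equal those of miR-466b-5p in every library, so they cannot be assigned to miR-466o. Of these, 16 came from eWAT HFLF replicate 5. By name, both arms were read in miR-669a, with 56.5% 5p (55.2 to 57.9%), and in miR-467a, with 47.9% (46.3 to 49.5%). The counts of miR-669a-5p, miR-669a-3p and miR-467a-5p equal those of miR-669p-5p, miR-669o-3p and miR-467b-5p. These shares therefore cannot be assigned to single hairpins. In miR-467a the 5p share was 67% in liver (62.2 to 71.5%) and 45.6% in eWAT (43.9 to 47.4%). Liver HF replicate 6 gave 118 of the 256 liver 5p counts and 0 of the 126 3p counts, and without it the liver share was 52.3% (46.3 to 58.2%). The intervals cover counting error only, and single libraries with 10 or more counts ranged from 0 to 100% in liver and from 27.4 to 63.9% in eWAT.

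Library totals over all miRNAs ran from 7866583 to 18832842 counts. In liver, 4 to 27 members were above 0 in a library, with a median of 22; in eWAT, 28 to 53, with a median of 35. Of the values of distinct members, 718 of 1008 were 0 in liver and 483 of 1008 in eWAT, and a count of 0 allows a level of up to 0.159 to 0.381 CPM, depending on the library, CPM being the counts of a miRNA per 1000000 counts of its library. On these library totals, miR-122-5p, the hepatocyte miRNA, had a median of 499000 CPM in liver and 1330 in eWAT, and miR-143-3p, abundant in stromal and adipose tissue, 13500 and 162000. Liver LF replicate 4 and liver HF replicate 6 stood apart, with 316 and 368 miRNAs above 0 against 540 to 633 in the other liver libraries, although HF replicate 6 had the highest total of all. Their summed endothelial miRNAs were 3030 and 3330 TMM-scaled CPM (the scaling is given with the levels), against 6090 to 9870 in the other liver libraries. Both are absent from the authors' deposited table of log2 values for liver. What these signs contribute to the results was not tested. eWAT LF replicates 1 and 4 stood apart in epithelial miRNAs, as described with the eWAT results. Some results are given with and without these 4 libraries. Other tissue differences, such as those of miR-467e-5p, miR-466b-3p and both arms of miR-669a in LF, are given with all libraries only.

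Levels are given below as CPM scaled by the trimmed mean of M-values (TMM) over all 36 libraries, and were not divided by length. This scaling matters between the tissues, because miR-122-5p takes much of each liver library: the factors were 0.575 to 0.807 in liver and 1.37 to 1.68 in eWAT. On plain library totals the distinct members summed to 20 to 77.2 CPM in liver and 105 to 430 in eWAT, without overlap. After TMM scaling the sums were 29.6 to 110 in liver, median 46.2, and 76.5 to 304 in eWAT, median 116, and the ranges overlapped only through liver LF replicate 4 and liver HF replicate 6.

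The comparison of tissues asked which members differ between liver and eWAT within one diet group. Of 20 distinct members of Sfmbt2 that were tested, 14 were called lower in liver in LF, 7 in HF and 7 in HFLF, and 0 higher. Over all miRNAs tested, 31.4%, 32% and 29.4% were called lower. miR-466i-5p, from chromosome 13, was called higher in liver in LF and HF. Of 29 members with enough counts to test, 20 were called lower in liver in the LF groups, where 31.4% of all miRNAs were called lower and 16% higher (47.4% in either direction). In the HF groups 11 were called lower, against 32% of all miRNAs lower and 17.6% higher (49.6%). In the HFLF groups 8 were called lower, against 29.4% lower and 19.2% higher (48.6%). Of the 29, 8 passed the filter on low counts only through eWAT, so calls of these are no support for a difference. Among the 21 that also passed in liver alone, 18, 8 and 6 were called lower (13, 6 and 5 of 16 distinct). Of the 478 such miRNAs, 24.9%, 24.7% and 21.3% were called lower. Calls are from edgeR's quasi-likelihood test over all 681 miRNAs at a Benjamini-Hochberg adjusted p under 0.05.

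miR-669c-5p was the highest member in eWAT. In liver its lowest, median and highest levels were 6.08, 10.9 and 36.2 in LF, 3.72, 10.7 and 17.4 in HF, and 5.48, 9.13 and 11.8 in HFLF. In eWAT they were 11.7, 23.6 and 82.9 in LF, 11.9, 24.2 and 26.4 in HF, and 13.8, 18.6 and 27.3 in HFLF. The tissues did not overlap in HFLF and overlapped in the other groups; in LF, liver replicate 4 stood far above the other liver libraries, which reached 12.1. The log2 difference, liver minus eWAT, was -1.37 ± 0.43 (SE, n = 6 and 6) in LF (edgeR adjusted p = 0.00854), -1.14 ± 0.43 in HF (0.0271) and -1.13 ± 0.43 in HFLF (0.0295). Without eWAT LF replicates 1 and 4 the LF difference was -0.54 (adjusted p = 0.338), and without liver LF replicate 4 and liver HF replicate 6 it was -1.86 (0.000126). Without the latter pair the HF difference was -0.78 (0.0729). Without all 4 libraries the differences were -1.10 (0.00532), -0.99 (0.00495) and -1.14 (0.00083), though none of the 4 is an HFLF library.

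miR-467e-5p separated the tissues in each diet group. In liver it was at 0 to 4.2 in LF (median 2.23), 0 to 7.19 in HF (median 1.36) and 0 to 6.34 in HFLF (median 1.38). In eWAT it was at 9.31 to 30.1 in LF (median 15.1), 8.38 to 14.2 in HF (median 10.4) and 9.3 to 13.2 in HFLF (median 11.5). No liver library of a diet group reached the lowest eWAT library of that group. The log2 difference was -3.0 ± 0.84 in LF (edgeR adjusted p = 0.00346), -2.25 ± 0.82 in HF (0.0208) and -2.31 ± 0.82 in HFLF (0.0186).

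miR-466b-3p, which stands for the 3p arms of miR-466b, miR-466c and miR-466p, was lower in liver in LF, where its liver libraries lay at 0 to 4.11 (median 1.66) and its eWAT libraries at 7.1 to 23.5 (median 11.8). The LF difference was -2.92 ± 0.71 (edgeR adjusted p = 0.000909), without overlap of the groups. In HF, liver reached 18.7 in replicate 6, against 1.08 to 4.08 in the other liver libraries and 5.41 to 13.3 in eWAT. The HF difference was -0.81 ± 0.66 (edgeR adjusted p = 0.32), and -1.75 (0.00586) without liver HF replicate 6 and liver LF replicate 4. In HFLF, with liver at 1.53 to 6.2 and eWAT at 3.85 to 11.9, it was -1.28 ± 0.67 (0.112), and -1.14 (0.0468) without the same pair of liver libraries. Neither of that pair is an HFLF library, but all groups of the fit share one estimate of the spread. The 3p arms of miR-466e and miR-466a, which share most of these reads, were called in LF as well (-2.92 ± 0.71 and -2.81 ± 0.72).

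Both arms of miR-669a were called lower in liver in LF and HF, and the 3p arm also in HFLF. miR-669a-5p lay at 0 to 3.32 in liver LF and 6.07 to 15.3 in eWAT LF (-2.59 ± 0.70, edgeR adjusted p = 0.00252). In HF it lay at 0.6 to 3.94 in liver and 5.14 to 8.25 in eWAT (-1.73 ± 0.68, 0.0318), a call lost in 19 of 36 fits that each left out 1 library (adjusted p up to 0.113), and in HFLF the tissues overlapped (-1.10 ± 0.67, 0.175). miR-669a-3p lay at 1.03 to 3.71 in liver LF and 2.74 to 11.7 in eWAT LF (-1.76 ± 0.57, edgeR adjusted p = 0.0105). It did not overlap between tissues in HF (-1.65 ± 0.57, 0.0156) or in HFLF (-2.73 ± 0.60, 0.000265), where it and miR-669o-3p, with the same counts, had the smallest adjusted p of the members.

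Other members were called lower in some diet groups. miR-467a-3p was at 0 in 4 of 6 liver HF libraries and at 3.7 to 6.4 in eWAT HF, a log2 difference of -4.15 ± 1.05 (edgeR adjusted p = 0.00119). miR-467c-5p was at 0 to 1.07 in liver HFLF and 1.97 to 6.18 in eWAT HFLF (-2.53 ± 0.72, 0.00401). miR-466d-3p was at 0 to 3.64 in liver HFLF and 4.35 to 8.46 in eWAT HFLF (-2.07 ± 0.67, 0.0101). The tissues did not overlap in any of these comparisons. miR-467a-5p, from the other arm, was called in LF (-3.66 ± 1.01, edgeR adjusted p = 0.00294), with 4 of 6 liver libraries at 0, and not in HF (-0.47 ± 0.88, 0.693), where liver replicate 6 reached 8.95.

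Members near the detection limit gave bounds only. miR-669d-5p had 0 counts in the 6 liver HFLF libraries and 119 in the 6 of eWAT, at least 14.8-fold higher in eWAT when the liver group is set to the limit of 3 counts over the group. miR-669b-5p had 0 and 47 counts, at least 5.86-fold higher. In HF, miR-669d-5p had 21 counts in liver and 34 in eWAT, and miR-669b-5p 18 and 21. Both passed the filter only through eWAT, so their calls in HFLF are no support for a difference, and by value both were higher in liver in HF (0.22 ± 1.35 and 0.44 ± 1.55).

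miR-466i-5p went the other way. Its precursor lies on chromosome 13 (17747473 to 17747593, plus strand) and the table gave it on 2 lines with different counts, of which the higher was used. In liver its lowest, median and highest levels were 2.15, 6.56 and 45.6 in LF, 2.63, 10.1 and 12.2 in HF, and 0.904, 7.08 and 11.6 in HFLF. In eWAT they were 0.861, 1.84 and 9.41 in LF, 0.529, 2.58 and 5.07 in HF, and 0.404, 2.67 and 4.34 in HFLF. Liver was higher by the median in each diet group, and the tissues overlapped in each. The log2 difference was 2.05 ± 0.71 in LF (edgeR adjusted p = 0.0157), 1.73 ± 0.70 in HF (0.0393) and 1.42 ± 0.70 in HFLF (0.0935). The LF difference was 1.09 (0.164) without liver LF replicate 4 and liver HF replicate 6, and on plain library totals the 3 differences were 0.66, 0.57 and 0.35 with no call.

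**Figure D2:**
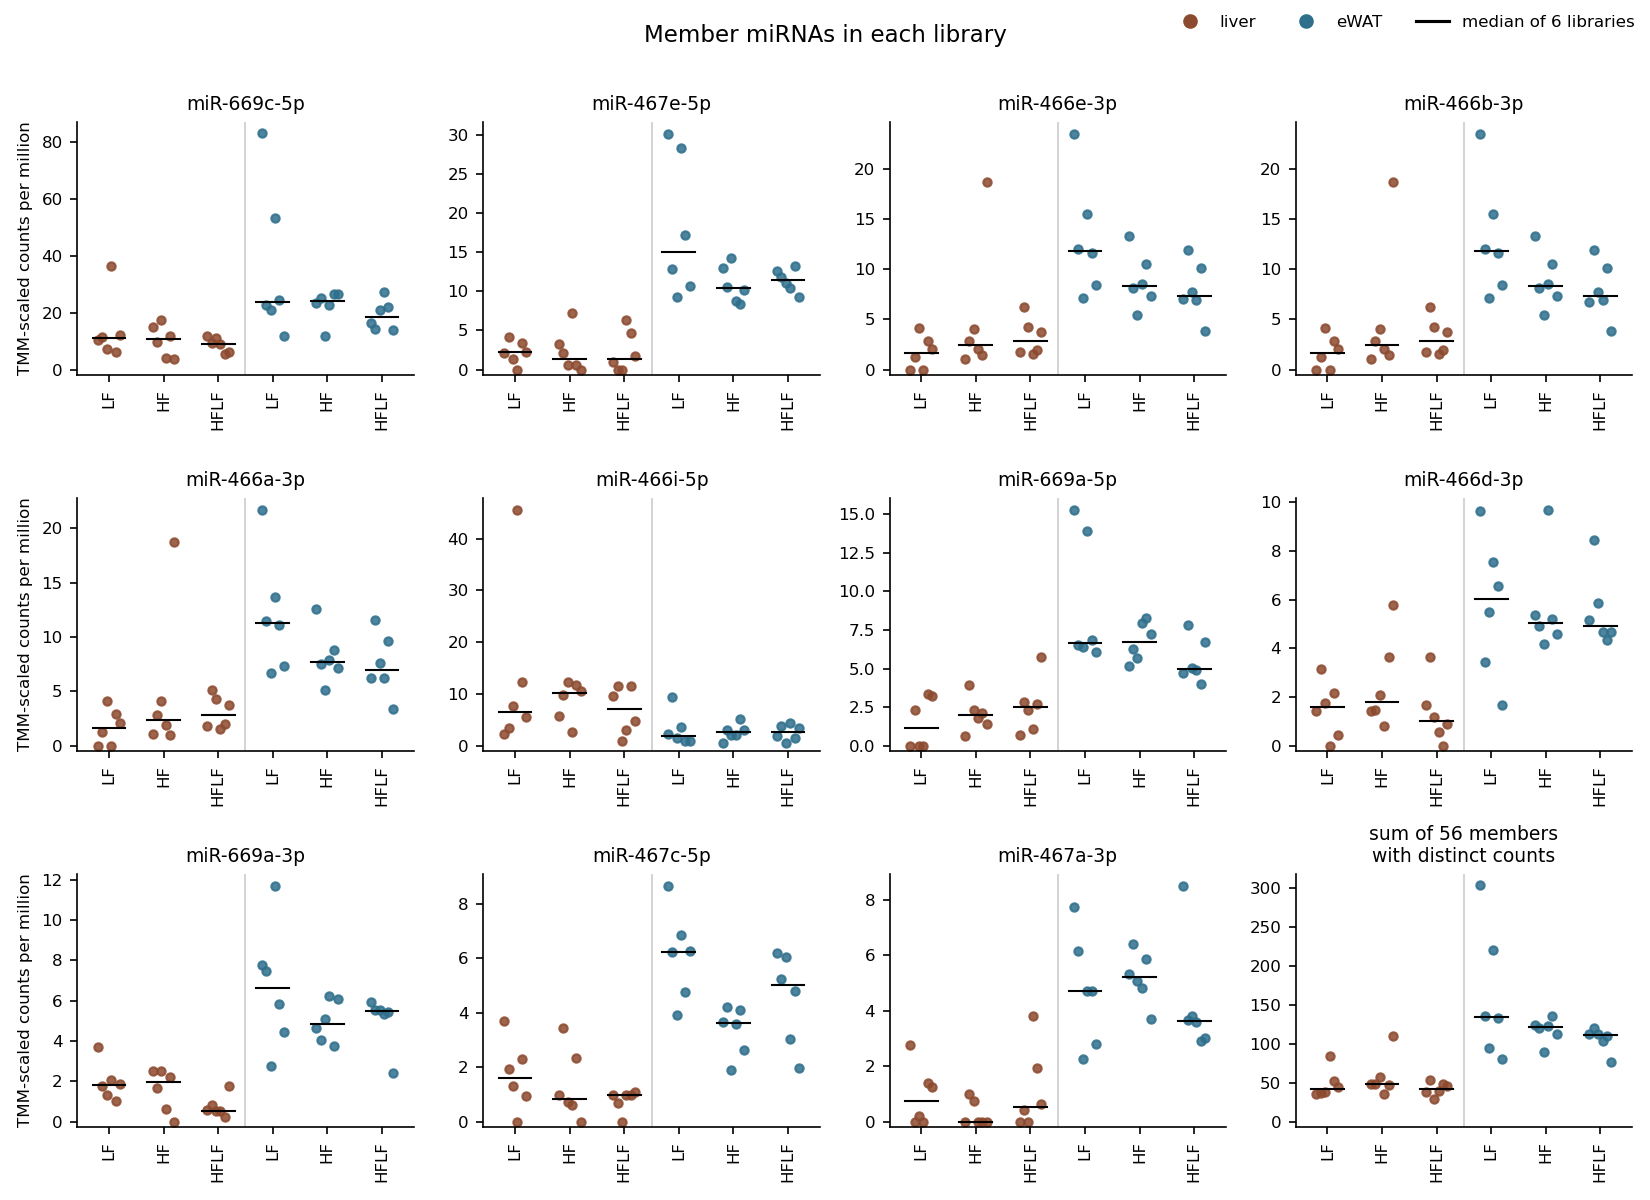
Level of the 11 distinct members among the 15 most abundant, and the sum of the 56 distinct members, in TMM-scaled CPM, with 1 point for each library in 6 groups and a line at the median of 6 libraries. The eWAT points lie above most liver points in every panel but that of miR-466i-5p, and single high points mark eWAT LF replicates 1 and 4, liver LF replicate 4 and liver HF replicate 6.

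Across the members, the LF comparison called 20 of 29 lower and 1 higher, 15 and 1 of 22 distinct members. The median difference was -2.28 over the members and -0.60 over all 681 miRNAs. In HF, 11 members (7 distinct) were called lower and 1 higher, with medians of -1.15 and -0.48. In HFLF, 8 members (7 distinct) were called lower and 0 higher, with medians of -1.86 and -0.27. The median over the 22 distinct members in HFLF was -1.87, also with the 2 members at 0 in liver set to their bounds. All these member medians include members that passed the filter on low counts only through eWAT. Their gap to the medians of all miRNAs is therefore no support for a difference.

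The share of members called lower in LF rested in part on eWAT LF replicates 1 and 4: without both, 11 of 30 were called lower, where 26.9% of 746 miRNAs were. Without all 4 libraries that stood apart, 15, 16 and 17 of 29 members were called lower in LF, HF and HFLF, where 29.3%, 35.7% and 34.1% of 745 miRNAs were. None of the 4 is an HFLF library, but all groups of the fit share one estimate of the spread. With all 36 libraries, 15, 7 and 9 of the 20 distinct members of Sfmbt2 had an unadjusted edgeR p under 0.05. Of all 681 miRNAs, 371, 375 and 358 did. The counts of calls moved with single libraries. Without eWAT LF replicate 1, 13 members were called lower in LF. The HF count fell to 6 without liver HF replicate 1, 5 without liver HF replicate 4, 4 without liver HF replicate 5 and 6 without eWAT HF replicate 6, and was 14 without liver HF replicate 6. On plain library totals 26, 21 and 25 members were called lower, where 62%, 57.1% and 54% of all miRNAs were called lower and 5.87%, 7.78% and 8.52% higher. The median of all miRNAs was then -1.87, -1.66 and -1.39.

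**Figure D3:**
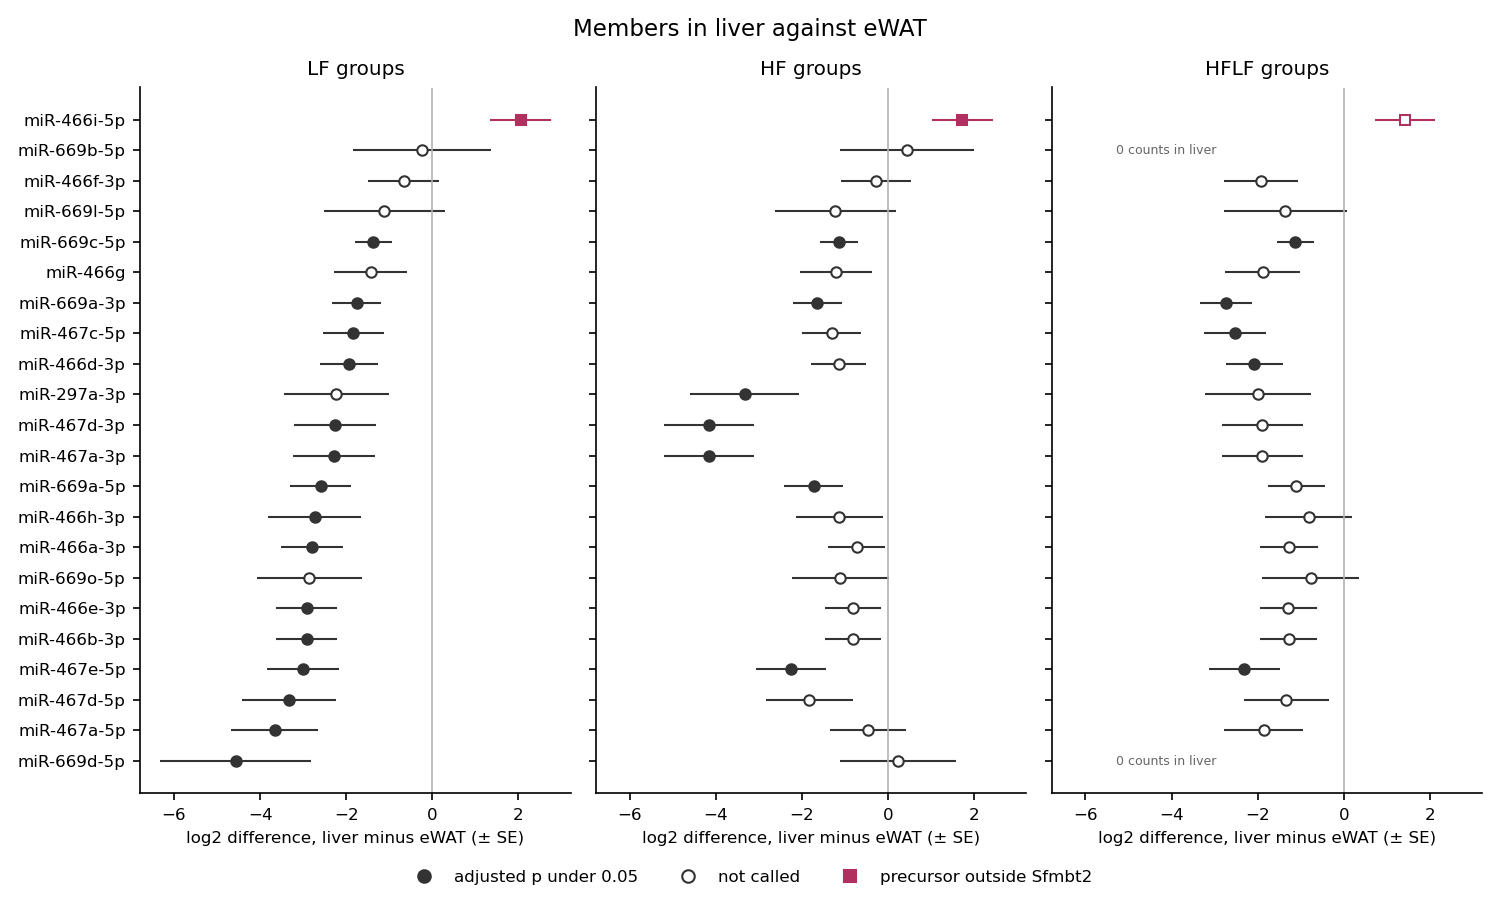
Log2 difference, liver minus eWAT, with its standard error for the 22 distinct members tested, in LF, HF and HFLF groups of 6 libraries per tissue; filled symbols passed an adjusted p under 0.05, and miR-466i-5p, a square, has its precursor outside Sfmbt2. Most points lie below 0 in the 3 panels, miR-466i-5p lies above 0 in each, and miR-669b-5p and miR-669d-5p are not drawn in HFLF because liver had 0 counts.

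Bulk tissue was sequenced, so fewer cells of a type and less RNA per cell cannot be told apart. Several marker lists of other cell types also differed between the tissues. The 8 adipose and stromal miRNAs had 6 called lower in liver in each diet group, the 7 leukocyte miRNAs 5, 5 and 3 in LF, HF and HFLF, and the 2 endothelial miRNAs 1 in each. The 5 erythroid miRNAs had 0 called by edgeR and 0 at an unadjusted p under 0.05 in each diet group. The 10 epithelial miRNAs had 6 called lower in liver in LF, and 6 called higher in HF and in HFLF. In eWAT LF they summed to 14000 and 17600 CPM in replicates 1 and 4, and to 99.4 to 262 in the other libraries. Liver LF libraries held 853 to 2000, so liver was the lower tissue only against those replicates. The summed leukocyte miRNAs ran from 819 to 1500 CPM in liver and from 1890 to 5000 in eWAT. Their part in the difference of the members was not tested.

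Imprinted miRNAs of other loci were set beside the members, since Sfmbt2 is imprinted too. Of 52 listed, 47 were tested between tissues, and 39 were called lower in liver in LF, 43 in HF and 42 in HFLF, with 0 called higher. Over all miRNAs tested, 31.4%, 32% and 29.4% were called lower. In liver alone 20 of the list passed the filter on low counts, and calls of the others are no support for a difference. The median differences of the 47, which include those others, were -3.44, -4.36 and -4.19. The most abundant, miR-335-5p, from the imprinted gene Mest, differed by -3.70 ± 0.40 in LF (edgeR adjusted p = 8.31e-10), -3.49 ± 0.39 in HF and -3.72 ± 0.40 in HFLF. The difference between this list and the members was not tested.

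The diet comparison within liver asked whether members differ among LF, HF and HFLF. None of 21 tested members (16 distinct) was called in HF minus LF, HFLF minus LF or HFLF minus HF, and 0% of the 478 miRNAs tested were called in any of them, by edgeR. At an unadjusted p under 0.05 there were 2, 0 and 0 members (1, 0 and 0 distinct), and 16, 14 and 5 of all 478 miRNAs. DESeq2 called 0 members in each. In HF minus LF, 13 members (9 distinct) had higher and 8 (7) lower values, with a median of 0.53 against -0.01 for all miRNAs. In HFLF minus LF there were 12 and 9 (8 and 8 distinct), median 0.29 against 0.01, and in HFLF minus HF 4 and 17 (3 and 13), median -0.98 against 0.04.

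The largest differences in liver were smaller without HF replicate 6. miR-467a-5p was at 0 in 4 of 6 LF libraries, with a highest level of 1.6. In HF it was at 0, 2.33 and 8.95 as lowest, median and highest, the highest in replicate 6, and in HFLF at 0, 0.918 and 1.88. The groups overlapped, and HF minus LF was 3.07 ± 1.39 (edgeR adjusted p = 0.998), and 1.85 without liver HF replicate 6. For miR-466b-3p, with liver levels as above, HF minus LF was 1.90 ± 0.97 (0.998), and 0.44 without liver HF replicate 6. Liver HF replicate 6 was also the highest HF library for miR-669o-5p at 8.04, miR-466i-3p at 8.19, miR-466f-3p at 7.43 and miR-466d-3p at 5.76.

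Other liver members had smaller values, and none was called. miR-669c-5p was lower by value in HFLF than in LF (-0.78 ± 0.51, edgeR adjusted p = 0.989), and by -0.07 without liver LF replicate 4. miR-669a-3p had its lowest median in HFLF, 0.549 against 1.82 in LF and 1.95 in HF, and its groups overlapped (HFLF minus LF -1.45 ± 0.83, 0.989). miR-466i-5p in HFLF minus LF was -1.07 ± 0.74 (0.989) and 0.20 without liver LF replicate 4. Without liver LF replicate 4 and liver HF replicate 6 the members tested were 22, the median of HF minus LF was 0.19 and that of HFLF minus HF was -0.28, with 0 called.

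The same question in eWAT gave lower values in HF and HFLF than in LF for most members, and no call. Of 29 tested members (22 distinct), 23 (18 distinct) were lower by value in HF minus LF, 26 (19) in HFLF minus LF and 21 (15) in HFLF minus HF. None was called by edgeR, as were 0% of all 638 miRNAs, and DESeq2 called 0 members in each comparison. At an unadjusted p under 0.05 there were 2, 10 and 0 members (2, 7 and 0 distinct), and 49, 98 and 21 of all 638 miRNAs. The medians were -0.44, -0.69 and -0.16, against -0.01, -0.04 and -0.02 over all miRNAs. LF is shared by the first pair of comparisons, so they are not independent.

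miR-669a-5p had the smallest p in HFLF minus LF. Its eWAT levels were 6.07, 6.67 and 15.3 in LF as lowest, median and highest, 5.14, 6.74 and 8.25 in HF, and 3.98, 4.96 and 7.81 in HFLF. The groups overlapped, and the highest LF library, replicate 1, was above every other. HFLF minus LF was -0.735 ± 0.264 (edgeR adjusted p = 0.164). miR-467e-5p, with eWAT levels as above, differed by -0.75 ± 0.26 in HF minus LF (0.232) and by -0.67 ± 0.26 in HFLF minus LF (0.196).

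miR-467c-5p had the smallest p in HF minus LF. It lay at 3.9, 6.25 and 8.66 in LF, 1.88, 3.62 and 4.22 in HF, and 1.97, 5.02 and 6.18 in HFLF as lowest, median and highest, so that 1 LF library lay inside the HF range. HF minus LF was -0.88 ± 0.29 (edgeR adjusted p = 0.2). miR-669c-5p differed by -0.67 ± 0.37 in HF minus LF (0.76) and by -0.91 ± 0.37 in HFLF minus LF (0.228). In HFLF minus HF the smallest p was that of miR-297a-3p, which stands for the 3p arms of miR-297a, miR-297b and miR-297c, at -1.23 ± 0.62 (0.997).

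The LF group of eWAT was split by replicates 1 and 4. Their distinct members summed to 304 and 220 CPM, and the other 4 LF libraries to 80.3 to 135, within or near the 76.5 to 135 of the HF and HFLF libraries. miR-669c-5p was at 82.9 in replicate 1, and LF without both replicates ran from 11.7 to 24.3. Replicate 1 also had the most members above 0 of any library, 53. In the same replicates the 10 epithelial miRNAs, among them the miR-200 family, summed to 14000 and 17600 CPM, where the remaining 16 libraries of that tissue held 53.7 to 262. The 5 epididymal and germ-cell miRNAs, of miR-34b, miR-34c and miR-449a, summed to 3110 in replicate 1 and 185 in replicate 4, against 20.2 to 142 elsewhere in eWAT. The 25 germ-line miRNAs of the X chromosome summed to 17.6 in replicate 1 and 708 in replicate 4, against 0.35 to 333 in the other libraries. All 10 epithelial and all 5 epididymal miRNAs were above 0 in eWAT, and of the 25 germ-line miRNAs miR-742-3p was at 0. Their part in the level of the members was not tested.

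**Figure D4:**
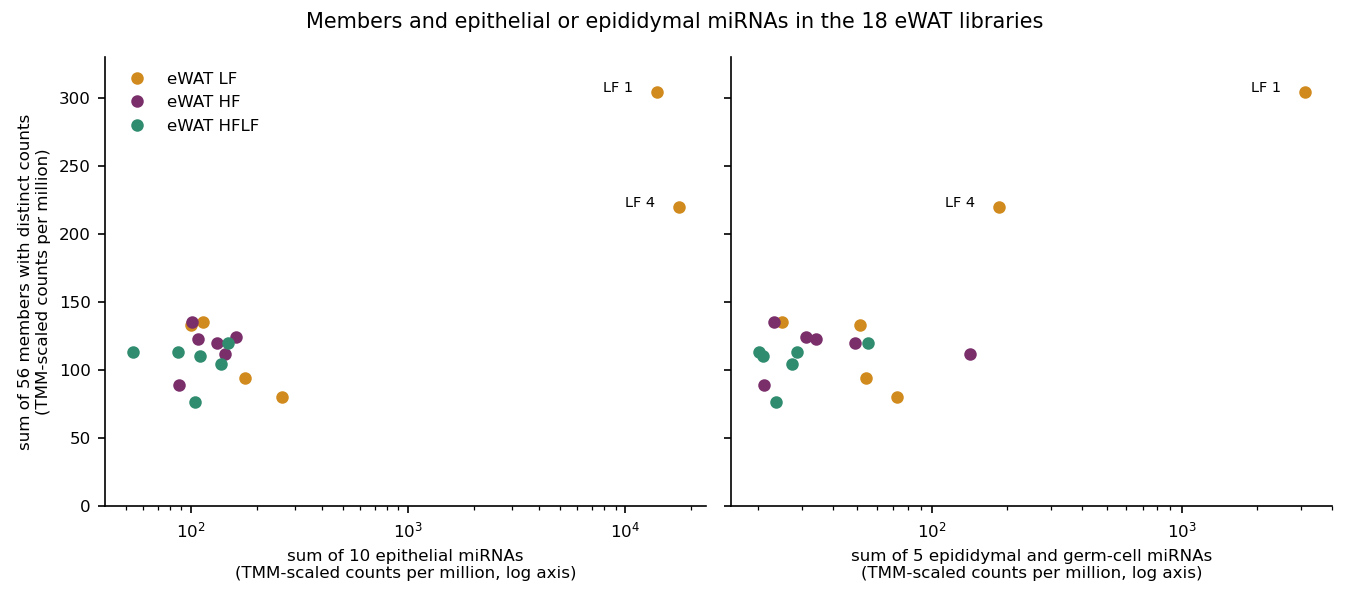
Sum of the 56 distinct members against the sum of 10 epithelial miRNAs (left) and of 5 epididymal and germ-cell miRNAs (right), both in TMM-scaled CPM with a log horizontal axis, for the 18 eWAT libraries. LF replicates 1 and 4, at 304 and 220, lie above and to the right of the other 16 libraries, which sum to 76.5 to 135.

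Without these 2 libraries HF minus LF had 20 of 30 tested members higher by value and 10 lower, median 0.12, the opposite of the direction with them. HFLF minus LF still had more members lower, 18 against 12, with a median of -0.06. No member was called, and 0 members had an unadjusted p under 0.05 in either comparison. miR-467e-5p in HF minus LF was -0.22, miR-669a-5p in HFLF minus LF was -0.24, and miR-466b-3p in HFLF minus LF was -0.33, each with an adjusted p of 0.929 or more. miR-467c-5p in HF minus LF stayed at -0.66 (adjusted p = 1). In eWAT HFLF minus HF, which uses neither library, 9 were higher and 21 lower by value.

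Whether a diet group differed from LF unequally in the tissues was tested by an interaction over 36 libraries. For HF minus LF, liver minus eWAT, 0 of 29 members were called, against 2.5% of 681 miRNAs (1.17% higher, 1.32% lower). At an unadjusted p under 0.05 there were 8 members (5 distinct) and 89 of the 681 miRNAs. DESeq2 called 2 members, miR-467a-5p and miR-467b-5p, which have the same counts. miR-467a-5p differed by 3.19 ± 1.31 (edgeR adjusted p = 0.236) and miR-466b-3p by 2.11 ± 0.94 (0.295). Without liver HF replicate 6 and liver LF replicate 4 these were 2.15 (0.423) and 0.84 (0.705). For HFLF minus LF 0 members were called, against 1.91% of miRNAs (1.62% higher, 0.294% lower), and DESeq2 called 0. At an unadjusted p under 0.05 there were 0 members and 80 of the 681 miRNAs.

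The authors' deposited tables of log2 values, in log2 CPM, held few members. The liver table listed 171 miRNAs in 16 libraries and no member. The eWAT table listed 180 miRNAs in 18 libraries and 4 members: miR-466b-3p, miR-467a-3p, miR-669a-3p and miR-669a-5p, which the count table gives on 8, 10, 11 and 12 lines. Their mean log2 values in the authors' deposited table were 5.81, 5.16, 5.53 and 6.02. The highest single line gave mean log2 values of 3.79, 2.75, 2.98 and 3.35 in CPM of plain library totals, without TMM scaling. The gap was 2.02, 2.42, 2.55 and 2.68 for the members on 8, 10, 11 and 12 lines, larger with more lines. The scaling behind the authors' values is not stated, and the size of the gap also depends on it. Whether the authors summed the lines was not tested. miR-669c-5p, on 1 line and the most abundant member here, was absent from the authors' deposited table.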

How the data were processed

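Small RNA libraries of liver and eWAT were prepared with the NEXTFLEX kit, per the labels' protocols; cutadapt, Bowtie and GRCm38.p6 are named in the submitters' processing notes, and for versions and settings the sources used here give nothing. The authors deposited raw read counts per mature miRNA and precursor, and log2 values per tissue, used only for the presence and level of members. The column letters C, H and R were taken to mean LF, HF and HFLF, and L and W liver and eWAT; 36 columns of normalized values beside the counts were not used. The highest line of each mature miRNA was tested with edgeR 4.0.16 in R 4.3.3 (TMM, filterByExpr with a minimum count of 10 and total of 15, robust quasi-likelihood, adjusted p under 0.05): each tissue over its 18 libraries, and tissues and interactions over 36. DESeq2 1.42.0 was an alternative. The analysis was also run on simulated data with one fixed spread for all miRNAs, which need not match the spread of members with few counts. Precursors were placed with GENCODE M21 on GRCm38. Named members were the 15 most abundant, called members up to the 10 largest and 5 smallest differences per direction, the 3 smallest p where none was called, and those of widest range within a group. Members and lists were chosen with earlier results of these data known.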

Additional observations from a re-analysis of the deposited data

Results flagged for a closer look

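In 78 sets of 6 libraries (13 quantities in 6 groups), 17 had a highest or lowest library set apart from the others by more of the group's range than Dixon's 95% critical value; chance does so in about 1 in 20 groups, and near-identical members repeat each other. Liver LF replicate 4 was high in miR-669c-5p, 36.2 TMM-scaled CPM against 12.1 in the next library, in miR-466i-5p, 45.6 against 12.3, and in the sum of distinct members, 83.9 against 52.4. Liver HF replicate 6 was high in miR-466e-3p, miR-466b-3p and miR-466a-3p, 18.7 in each against 4.08, in the sum of distinct members, 110 against 56.7, and in the sum of those located in Sfmbt2, 72.9 against 40.5.

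The others concerned single members. In eWAT, miR-669c-5p was low in HF replicate 3 at 11.9, miR-466i-5p high in LF replicate 2 at 9.41, miR-466d-3p high in HF replicate 4 at 9.69 and HFLF replicate 2 at 8.46, miR-467a-3p high in HFLF replicate 1 at 8.51, and miR-669a-3p low in HFLF replicate 6 at 2.43, where the sum of members in Sfmbt2 was 69.5 against 91.9. In liver HFLF, miR-669a-3p was high in replicate 6 at 1.79 and miR-467c-5p was at 0 in replicate 3.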

How the results depend on the processing

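The 6 diet counts stayed at 0 under each alternative. For liver minus eWAT, members called higher in LF fell from 1 to 0 on plain totals, with only the groups compared, without liver LF 4 and HF 6, without eWAT LF 1 and LF 4, and without all 4 (added after seeing the data). Members called lower in LF were 11 with only the groups compared and 11 without eWAT LF 1 and LF 4, against 20. In HF, higher calls fell from 1 to 0 with RLE factors, plain totals and no filter, and lower calls, 11, became 21 on plain totals and 7 with identical members collapsed. In HFLF, higher calls rose from 0 to 1 with no filter, only the groups compared, and without liver LF 4 and HF 6; lower calls, 8, became 25 on plain totals, 20 with DESeq2, 15 with only the groups compared, 14 without liver LF 4 and HF 6, and 17 without all 4. None of the libraries left out by name here is an HFLF library, so HFLF counts moved only through what the groups of a fit share. The HF interaction had 2 calls with DESeq2. Shares over all miRNAs are given above for some of these settings only, so the other counts alone do not describe the members. The cause was not tested.

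Leaving out 1 library gave 0 to 1 higher and 13 to 21 lower calls in LF, 0 to 1 and 4 to 14 in HF, and 0 to 1 and 6 to 10 in HFLF. miR-466i-5p in liver HFLF minus LF, -1.07, became 0.20 without liver LF 4 and HF 6 and without all 4, and -1.30 to 0.20 leaving out 1 library. The calls of miR-669c-5p were lost in 17 of 36 such fits in HF and 18 in HFLF.

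Same-numbered samples did not deviate together (correlations -0.061 to 0.147 between tissues, 1 of 18 over 0.1). That check cannot decide whether same-numbered liver and eWAT samples came from the same mouse, since tissues of a mouse need not deviate together. The main tests treat the samples as unpaired. With the replicate block, lower calls were 17, 9 and 7, higher calls 1, 1 and 0, and all diet and interaction counts 0. Depth limits liver most: 718 of 1008 values were 0.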
